A study of Mus musculus with 24 samples.

Results

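Simple epithelial keratins are the intermediate filament proteins of single-layered epithelia, and 10 genes that mark such epithelia or the bile duct were followed here in plasma vesicle RNA after bile duct ligation. They were picked by gene symbol from the 21960 genes of the deposited table: Krt8, Krt18, Krt19, Krt7, Krt23, Epcam, Sox9, Spp1, Cldn7 and Pigr, all 10 of which had a row. RNA was sequenced from vesicles that a polymer reagent (ExoQuick) precipitated from mouse plasma. The tissue label of each sample reads liver and its site label extracellular vesicles; the protocol describes plasma. The 4 groups, each with 6 male C57BL/6J mice of an inbred laboratory strain, were bile duct ligation at day 8 after surgery, sham surgery at day 8, bile duct ligation at day 15 and sham surgery at day 15. Ligation ties off the common bile duct, so that bile is retained in the liver and ducts proliferate; sham animals were operated on without it. Each library came from 1 animal, and no genetic change is given for any group.

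Keratins assemble as pairs of a type II and a type I chain. Hepatocytes carry Krt8 (type II) and Krt18 (type I) as their keratin pair, and the cells lining bile ducts carry these as well as Krt7 (type II) and Krt19 (type I), which makes Krt7 and Krt19 the usual duct markers of liver histology. Pigr is the polymeric immunoglobulin receptor, which carries dimeric immunoglobulin A across epithelia; in rodents it is made by hepatocytes as well as by duct and gut epithelium. Gut, pancreas, kidney and other epithelia also express several of the 10 genes, so none of them names a single cell type.

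The keratin and Pigr promoters are shown because Krt8, Krt18 and Pigr had the largest fold changes of the 5 genes tested at day 15, and Krt7 is the duct counterpart of Krt8. Of the 10 genes, 8 matched an entry in the RefSeq promoter table (GRCm38.p6), each 300 bases long with the annotated start near its end. Capitals mark exact matches, on either strand, to the TATA box (TATAAA, in 13.6% of all 32851 promoters), the GC box (GGGCGG, 35.7%), the E box (CACGTG, 7.2%) or the AP-1 site (TGANTCA, 7.8%). These windows lie at chr15:102004293-102004592 (Krt8, minus strand), chr15:102027966-102028265 (Krt18, plus strand), chr15:101412153-101412452 (Krt7, plus strand) and chr1:130826434-130826733 (Pigr, plus strand).
Krt8: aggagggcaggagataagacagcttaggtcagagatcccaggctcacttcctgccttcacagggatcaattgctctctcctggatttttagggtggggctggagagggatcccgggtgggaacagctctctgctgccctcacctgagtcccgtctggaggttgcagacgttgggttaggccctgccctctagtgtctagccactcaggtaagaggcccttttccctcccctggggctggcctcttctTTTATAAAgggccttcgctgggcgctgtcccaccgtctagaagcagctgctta
Krt18: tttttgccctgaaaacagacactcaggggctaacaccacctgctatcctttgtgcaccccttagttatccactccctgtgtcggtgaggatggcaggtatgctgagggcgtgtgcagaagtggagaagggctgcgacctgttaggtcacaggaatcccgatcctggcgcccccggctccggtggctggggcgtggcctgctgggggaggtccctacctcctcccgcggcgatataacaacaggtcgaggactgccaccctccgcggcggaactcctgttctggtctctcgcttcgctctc
Krt7: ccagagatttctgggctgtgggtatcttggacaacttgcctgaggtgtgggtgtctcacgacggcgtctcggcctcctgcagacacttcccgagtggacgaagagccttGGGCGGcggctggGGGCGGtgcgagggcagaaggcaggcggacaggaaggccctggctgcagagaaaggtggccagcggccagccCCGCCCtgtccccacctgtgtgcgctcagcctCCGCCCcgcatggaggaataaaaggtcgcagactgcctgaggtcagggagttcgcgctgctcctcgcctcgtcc
Pigr: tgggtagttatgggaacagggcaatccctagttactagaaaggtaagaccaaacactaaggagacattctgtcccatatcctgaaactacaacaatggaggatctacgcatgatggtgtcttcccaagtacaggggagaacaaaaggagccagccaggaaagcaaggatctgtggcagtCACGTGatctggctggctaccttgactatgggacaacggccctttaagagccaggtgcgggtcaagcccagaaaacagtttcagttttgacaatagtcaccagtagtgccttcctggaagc
The Krt8 window held the TATA box on both strands, overlapping, from positions -1 and -3 relative to the annotated start. Krt7 held 4 GC boxes, from positions -141, -128, -56 and -24, the first 2 on its own strand. Pigr held 1 E box, from position -71, and Krt18 held none of the 4 motifs. A match describes the letters of a window and is no evidence that a factor binds there.

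In the GENCODE M21 annotation of GRCm38, Krt8 (ENSMUSG00000049382) spans 101996698 to 102004482 of chromosome 15 on the minus strand. Krt18 (ENSMUSG00000023043) follows on the plus strand of the same chromosome, from 102028180 to 102032027, with 23697 bases between them. Krt7 (ENSMUSG00000023039; 101411043 to 101430313, plus strand) lies on that chromosome too. Krt19 (ENSMUSG00000020911) lies on chromosome 11 at 100140810 to 100148665 on the minus strand, and Pigr (ENSMUSG00000026417) on chromosome 1 at 130826684 to 130852249 on the plus strand. The annotation also lists a processed Krt8 pseudogene (Krt8-ps), and no source used here says how reads shared with it were divided.

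Libraries were shallow for genes at this level. Totals ran from 167939 to 937963 counts in ligated and from 101733 to 824640 in sham animals at day 8, and from 315404 to 465744 in ligated and from 157133 to 351201 in sham animals at day 15. The single gene Lars2 took between 31.6% and 52.7% of the counts of a library. Day 8 libraries of animals 4 to 6 were deeper than those of animals 1 to 3 in both groups. Libraries of a group differed beyond sampling noise. Of the 10 genes, 5 passed the filter on low counts (Krt8, Krt18, Krt19, Spp1 and Pigr), as did 4112 genes in all. A gene could pass through its high group alone. Levels are given as CPM, the depth-scaled count of a gene with library totals adjusted by TMM factors, and calls are at an adjusted p under 0.05 in edgeR's quasi-likelihood test over all 4112 genes. The labels give 1 animal per library, and vesicle RNA does not tell more vesicles of a cell type apart from more RNA per vesicle.

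**Figure D1:**
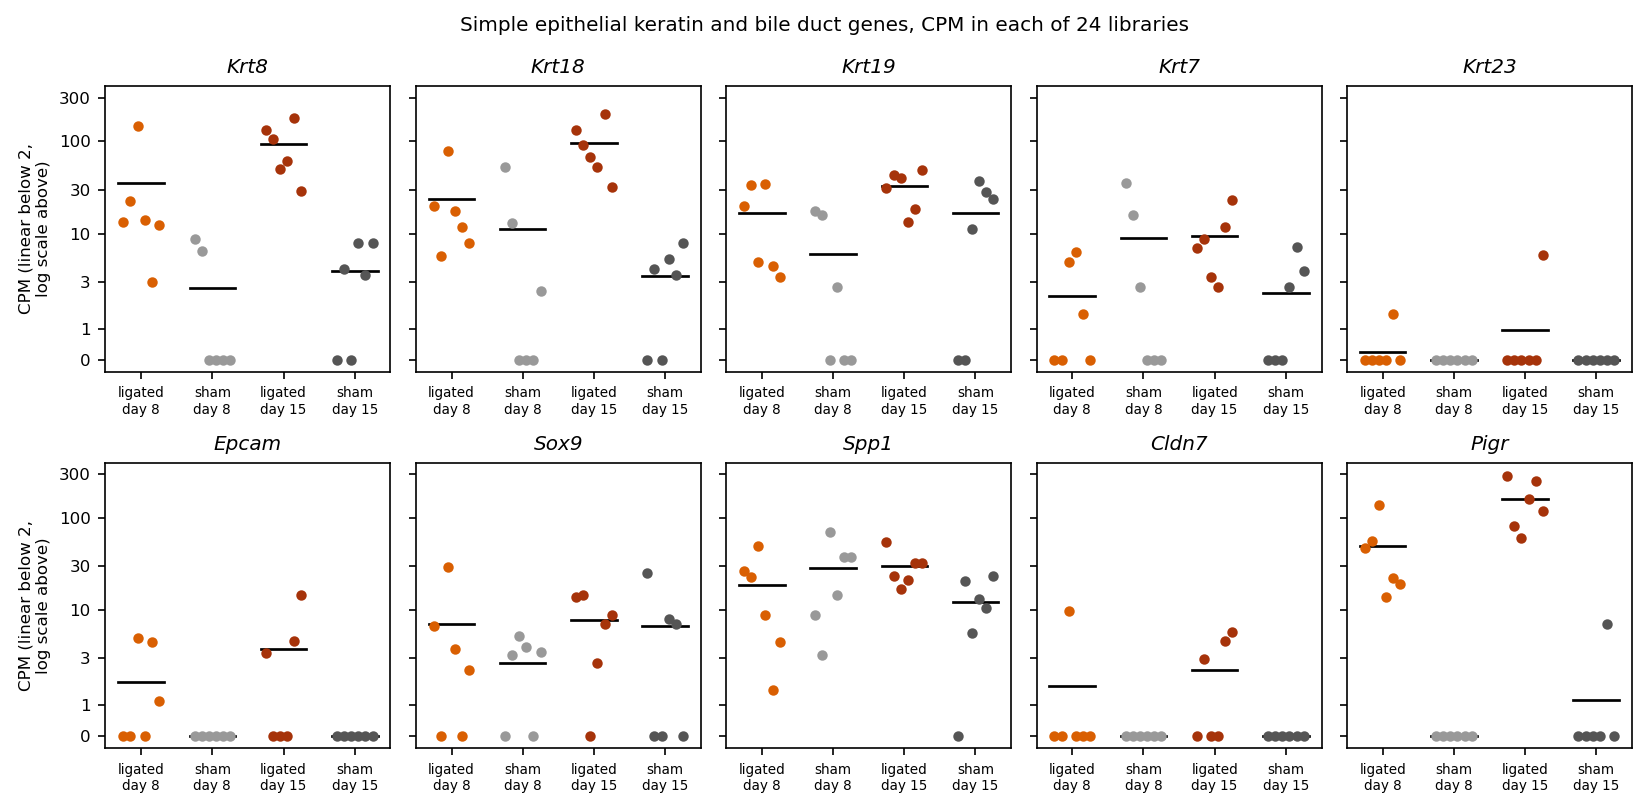
CPM of each of the 10 genes in the 24 libraries, on an axis that is linear below 2 and logarithmic above; dots are animals and bars are group means, with ligated and sham animals side by side for each day. Krt8, Krt18 and Pigr sit between 29.2 and 284 CPM in all 6 ligated animals at day 15 and at or below 8.01 CPM in all 6 sham animals, whereas Krt19, Sox9 and Spp1 overlap between ligated and sham animals on both days.

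Krt8 was higher after ligation on both days, Pigr likewise, and Krt18 at day 15. At day 8, 2 of the 5 tested genes were called higher and 0 lower, against 2.77% called higher and 0.365% lower (3.14% in either direction) among all 4112 genes. At day 15, 3 of the 5 were called higher and 0 lower, against 3.48% higher and 1.07% lower (4.55% in either direction) among all genes. Krt8, Krt18 and Pigr passed the filter mainly through the ligated groups, so these counts describe the 5 genes kept and not all 10. With the animal number as a block, since same-numbered animals deviated together at day 8, 202 genes instead of 129 were called at day 8, and again 2 of the 5 genes.

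Krt8, the type II keratin of hepatocytes and ducts, had 2, 4, 30, 11, 2 and 11 counts in ligated animals 1 to 6 at day 8, against 1, 2, 0, 0, 0 and 0 in sham animals. Ligated animal 3, at 148 CPM, stood far above the other ligated animals, which ran from 2.98 to 22.6 CPM, and the lowest ligated animal lay below the highest sham animal at 8.80 CPM. Summed over animals this was 60 counts after ligation and 3 after sham surgery, a ratio of normalised sums of 20.9 (95% counting interval 6.82 to 104). Its log2 fold change at day 8 was 4.34 (SE 1.05, edgeR adjusted p = 0.0196). The day 8 call rested on single libraries: the value was 3.11 (adjusted p = 0.0558) without ligated animal 3, 4.01 (adjusted p = 0.0634) without sham animal 4 and 4.08 (adjusted p = 0.0586) without sham animal 5. Within the shallower day 8 libraries alone it was 3.88 (adjusted p = 0.0767), and within the deeper ones 5.21 (adjusted p = 0.180).

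At day 15, Krt8 had 38, 36, 15, 23, 77 and 10 counts in ligated animals and 0, 1, 0, 3, 1 and 2 in sham animals. The ligated animals ran from 29.2 to 180 CPM and the sham animals from 0 to 8.01 CPM, with no overlap. The log2 fold change was 4.36 (SE 0.82, edgeR adjusted p = 0.000931), and the ratio of normalised sums was 22 (10.5 to 55.4).

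Krt18, the type I partner, had 3, 1, 16, 14, 8 and 7 counts in ligated animals at day 8, against 6, 4, 0, 0, 0 and 2 in sham animals. The groups overlapped there, since sham animals 1 and 2 reached levels within the ligated range. Its log2 fold change at day 8 was 2.03 (SE 0.85, edgeR adjusted p = 0.246), and 3.00 (adjusted p = 0.0551) without sham animal 1. With no filter on low counts its edgeR adjusted p was 0.00419, at a smaller SE of 0.48. That fit called 298 genes at day 8 in place of 129, so its p-values are more liberal than those of the main fit. At day 15 the counts were 38, 31, 20, 20, 84 and 11 after ligation and 0, 1, 0, 2, 1 and 2 after sham surgery. The ligated animals ran from 32.1 to 196 CPM and the sham animals from 0 to 7.90 CPM, again with no overlap. Here the log2 fold change was 4.59 (SE 0.81, edgeR adjusted p = 0.000424) and the ratio of sums 26.3 (11.9 to 72.5). Both chains of the pair gave similar sums in ligated animals, 60 counts of Krt8 and 49 of Krt18 at day 8, and 199 and 204 at day 15.

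Pigr, the immunoglobulin A receptor, had the largest fold changes of the 5 tested genes. It had 7, 10, 28, 11, 15 and 17 counts in ligated animals at day 8 and 0 in each of the 6 sham animals. Against a floor of 3 counts over the sham group, this was at least 30.6-fold higher (88 counts against 0; edgeR adjusted p = 0.00178). At day 15 it had 82, 28, 18, 60, 109 and 41 counts in ligated animals, and 0, 0, 0, 0, 2 and 0 in sham animals. Levels ran from 60.4 to 284 CPM after ligation and from 0 to 7.10 CPM after sham surgery. The log2 fold change was 6.70 (SE 0.84, edgeR adjusted p = 1.21e-05), or 9.03 without sham animal 5, which held both sham counts. The ratio of normalised sums was 131, with an interval of 35.9 to 1084 that shows how little 2 sham counts fix it. Unlike Krt8, Pigr was called within the shallower day 8 libraries (adjusted p = 0.0107) and within the deeper ones (adjusted p = 0.0465) taken alone.

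**Figure D2:**
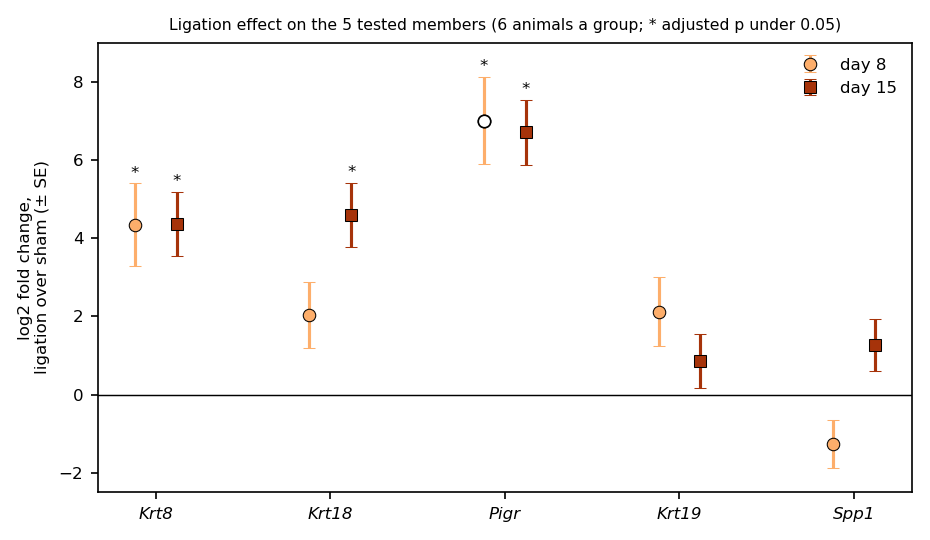
Log2 fold change of ligated over sham animals, with its SE as a bar, for the 5 genes that passed the filter at day 8 (circles) and day 15 (squares); asterisks mark an adjusted p under 0.05. The open circle of Pigr is a fitted value against 0 sham counts and depends on the prior count; Krt8, Krt18 and Pigr lie at 4.36, 4.59 and 6.70 at day 15, and Krt19 and Spp1 at 0.86 and 1.27.

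Krt19, the type I keratin of bile ducts, was not called on either day. It had 3, 6, 1, 27, 3 and 3 counts in ligated animals at day 8, against 2, 5, 0, 2, 0 and 0 in sham animals. The sham libraries with counts reached 17.6 CPM, within the ligated range of 3.38 to 34.4 CPM. Its log2 fold change was 2.12 (SE 0.89, edgeR adjusted p = 0.249) at day 8. The more liberal fit with no filter gave an adjusted p of 0.0134 there, at a smaller SE of 0.56. At day 15 it had 9, 15, 12, 5, 8 and 17 counts after ligation and 0, 0, 2, 14, 8 and 6 after sham surgery. Sham animal 4 at 37.4 CPM exceeded 3 ligated animals, and the log2 fold change was 0.86 (SE 0.68, adjusted p = 0.564). Over both days averaged it was 1.49 (SE 0.56, edgeR adjusted p = 0.0910), and 1.96 (adjusted p = 0.0347) without sham animal 2 of day 8. With no filter its adjusted p was 0.00133, again at a smaller SE of 0.35. On that average, Krt8, Krt18 and Pigr were called higher, against 7.1% called higher and 3.5% lower (10.6% in either direction) among all genes.

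Krt7, the type II keratin of bile ducts, did not pass the filter. It had 0, 0, 1, 5, 1 and 0 counts in ligated animals at day 8 and 4, 5, 1, 0, 0 and 0 in sham animals, 7 counts against 10, a ratio of normalised sums of 0.731 (0.236 to 2.13). At day 15 the counts were 2, 3, 1, 1, 5 and 8 after ligation and 0, 0, 0, 1, 2 and 1 after sham surgery, a ratio of 3.87 (1.3 to 15.6) on 20 against 4 counts. Fitted with no filter on low counts, its edgeR adjusted p was 0.823 at day 8 and 0.263 at day 15. Krt23, an epithelial type I keratin (ENSMUSG00000006777, chromosome 11, 99477974 to 99493137, minus strand), had 1 count in the ligated animals of day 8 and 2 in those of day 15, and 0 in both sham groups. So few counts allow no statement about it.

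The share of each pair was taken from summed counts. Of the counts in these 4 keratins at day 8, Krt8 and Krt18 held 68.6% after ligation (109 of 159; exact 95% interval 60.7 to 75.7%) and 44.1% after sham surgery (15 of 34; 27.2 to 62.1%). At day 15 they held 82.4% after ligation (403 of 489; 78.7 to 85.7%) and 27.7% after sham surgery (13 of 47; 15.6 to 42.6%). These intervals cover counting error over pooled animals only, and the share was not tested over animals. At day 8 the animals overlapped fully, from 43.9% to 95.8% in ligated animals and from 0% to 100% in the 5 sham animals with a count. Without ligated animal 3, which held 46 of the 109 Krt8 and Krt18 counts, the ligated share at day 8 was 56.8%, inside the sham interval. Among ligated animals of day 15 the share ran from 45.7% in animal 6, the animal with the least hepatocyte RNA, to 92.5% in animal 5. In sham animals of day 15 it ran from 0% in animal 3 to 100% in animal 2, on 2 counts each, so the groups overlapped there too. Sham animals 4, 5 and 6 lay at 25%, 16.7% and 36.4%, and sham animal 1 had no count. At day 8 sham animals 1 and 2 alone held 13 and 16 of the 34 counts. Each animal was also left out in turn, an alternative added after seeing the data. The pooled share at day 15 was then 76.8% to 86.2% in ligated and 24.4% to 31.4% in sham animals.

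Hepatocyte transcripts were higher after ligation as well. A list of 25 hepatocyte genes, such as the plasma protein genes Alb, Trf, Hpx and Apob, had 20 tested members. Of these 14 were called higher at day 8 and 20 at day 15, with 0 lower. Among all 4112 genes 2.77% were called higher at day 8 and 3.48% at day 15. Listed genes such as Hpx (2667 counts in ligated, 2 in sham libraries) and Fgb (613 and 1) passed the filter through ligated animals. The calls therefore describe the 20 genes kept and not all 25. Its summed level ran from 478 to 7045 CPM in ligated and from 67.6 to 185 CPM in sham animals at day 8, and from 3812 to 29322 CPM in ligated and from 97.7 to 182 CPM in sham animals at day 15. None of the 25 was at 0 in either ligated group, while Fgb was at 0 in sham animals of day 8 and 6 genes were at 0 in those of day 15. Alb, which encodes serum albumin, had 828 against 36 counts at day 8 (ratio 24) and 5861 against 29 at day 15 (ratio 156). The list summed to 323 counts in sham animals at day 8 and 217 at day 15. Of these Trf held 125 and 98, the listed gene Ass1 57 and 21, and Hpx 1 on each day. In ligated animals it summed to 3771 and 26064 counts, with 1127 and 6671 of Trf, 92 and 468 of Ass1, and 335 and 2332 of Hpx. Ratios to the list thus divide by differently composed sums in ligated and sham animals. Per 100 counts of the list, Krt8 and Krt18 together had 2.89 counts in ligated and 4.64 in sham animals at day 8, and 1.55 in ligated and 5.99 in sham animals at day 15. Among ligated animals this ratio ran from 2.04 to 3.22 at day 8 and from 1.17 to 2.42 at day 15. The sham value of day 8 rested on few counts: it was 2.65, below the ligated value, without animal 1, 3.04 without animal 2 and 7.30 without animal 6. Krt7 and Krt19 together had 1.33 per 100 in ligated and 5.88 in sham animals at day 8, and 0.330 in ligated and 15.7 in sham animals at day 15. Single libraries moved these values too. At day 8 the ligated value was 2.05 without animal 3 and 0.601 without animal 4, and the sham value 3.04 without animal 2 and 10.7 without animal 6. At day 15 the ligated value was 0.540 without animal 5. Pigr had 2.33 per 100 in ligated and 0 in sham animals at day 8, and 1.3 in ligated and 0.922 in sham animals at day 15, where the sham counts all came from animal 5. Animal 3 was the highest of the ligated day 8 animals in the list, in Krt8, in Krt18 and in Pigr. The part of hepatocyte RNA in the keratin and Pigr results was not tested.

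**Figure D3:**
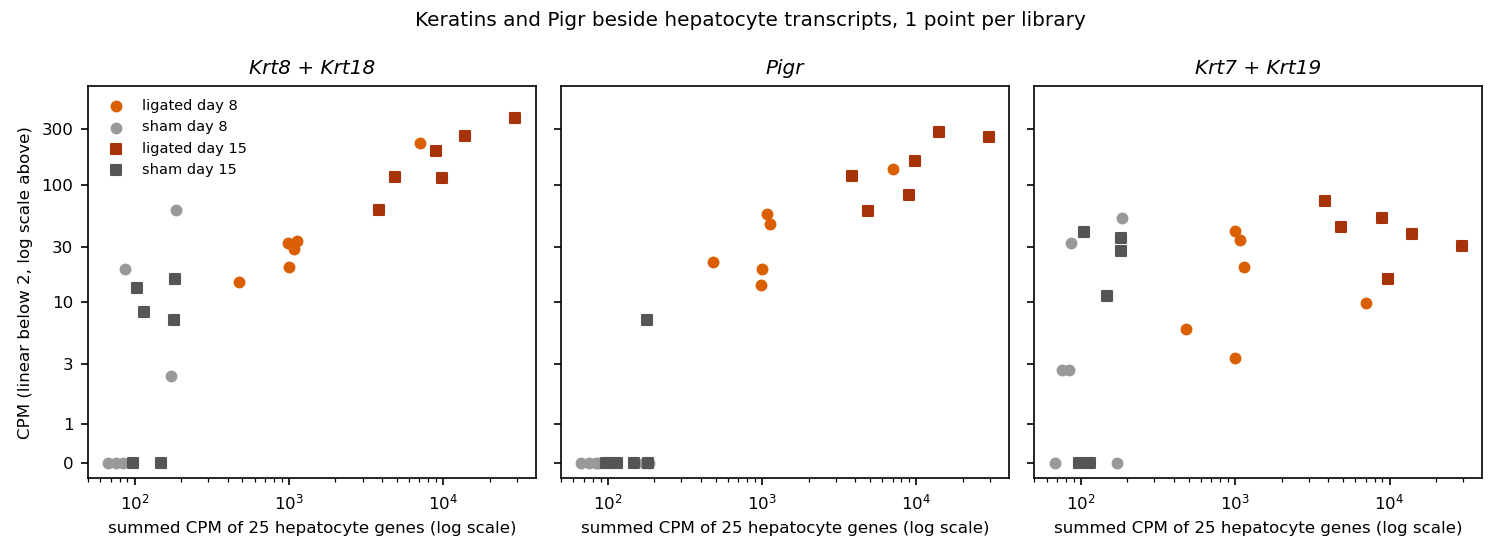
CPM of Krt8 plus Krt18, of Pigr, and of Krt7 plus Krt19 against the summed CPM of 25 hepatocyte genes (log scale), 1 point per library, coloured by group. Ligated libraries of day 15 lie between 3812 and 29322 CPM of hepatocyte genes with 61.3 to 376 CPM of Krt8 plus Krt18, whereas Krt7 plus Krt19 reach 73.0 CPM at most, in the ligated day 15 library with the least hepatocyte RNA.

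Per kilobase of exon, the genes ordered Krt18, Krt8, Pigr, Spp1 and Krt19 in ligated animals of day 15, at 66.3 ± 41.9, 47.5 ± 29.0, 39.8 ± 22.8, 18.4 ± 8.38 and 17.7 ± 7.78 CPM per kb (SD, n = 6). The spreads of the first 3 overlap, as do those of Spp1 and Krt19. Sox9, Epcam, Krt7, Cldn7 and Krt23 followed at 1.89 ± 1.42, 1.73 ± 2.58, 1.34 ± 1.08, 1.15 ± 1.35 and 0.622 ± 1.52 CPM per kb, not separable from each other. In sham animals of day 15 the order was Krt19 at 9.06 ± 8.35, Spp1 at 7.48 ± 5.42, Krt18 at 2.43 ± 2.15, Krt8 at 2.01 ± 1.82 and Sox9 at 1.63 ± 2.38 CPM per kb. These overlap throughout. The lengths are all exons of a gene in the annotation, 7.05 kb for Krt7 against 1.96 kb for Krt8, so a level per kb of Krt7 understates it where long exons are not transcribed.

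Ligated animals of day 15 and of day 8 were also compared directly. In that comparison 2 of the 5 genes were called higher at day 15 (Krt18 and Pigr), against 2.26% called higher and 2.09% lower (4.35% in either direction) among all genes. Krt18 summed to 204 counts at day 15 and 49 at day 8, with a log2 difference of 2.31 (SE 0.59, edgeR adjusted p = 0.0243). Pigr summed to 338 counts and 88, with a difference of 2.02 (SE 0.49, adjusted p = 0.0214). Krt8 had 199 and 60 counts, a difference of 1.79 (SE 0.59, adjusted p = 0.0865), and Krt19 66 and 43 counts. Both calls were lost without ligated animal 4, 5 or 6 of day 8, or without ligated animal 1 or 5 of day 15, at an adjusted p of at most 0.106 for Krt18 and 0.0761 for Pigr. Leaving out ligated animal 3 of day 8 raised the Krt8 difference to 3.03, which was then called. DESeq2 called neither of Krt18 and Pigr. In sham animals the ratio of normalised sums, day 15 over day 8, was 4.37 for Krt8 (0.997 to 26.2, on 7 against 3 counts). It was 0.936 for Krt18 (0.288 to 2.69) and 6.24 for Krt19 (2.89 to 14.9). The same ratios in ligated animals were 4.60, 5.77 and 2.13. Pigr had 2 sham counts at day 15 and 0 at day 8. Hepatocyte RNA was higher too: 20 of its 20 tested genes were called higher in ligated animals at day 15 than at day 8. Their median log2 difference was 2.93, and a listed gene could pass the filter through ligated animals of day 15 alone. The part of hepatocyte RNA in the Krt18 and Pigr differences was not tested. In the opposite direction, 6 of 12 platelet genes were called lower at day 15: the 12 held 1251 to 2164 CPM in ligated animals at day 15 and 1410 to 9635 CPM at day 8. Sham animals differed likewise, with 889 to 2625 CPM at day 15 and 995 to 8233 CPM at day 8. The highest day 8 values were those of the deeper libraries, 4955 to 9635 CPM in ligated and 3964 to 8233 CPM in sham animals 4 to 6. The part of depth was not tested.

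Whether the ligation effect itself differed between days was tested as the difference of the effects, day 15 minus day 8. 0 of the 5 genes and 0 of the 4112 were called (0%), with 234 genes at an unadjusted p under 0.05, and DESeq2 called 0 as well. The difference was 0.01 for Krt8 (SE 1.33), 2.56 for Krt18 (SE 1.17, edgeR adjusted p = 0.898) and -0.30 for Pigr (SE 1.40). SEs above 1 on the log2 scale leave differences of several fold undetectable at this depth.

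Epcam, an adhesion molecule of simple epithelia (ENSMUSG00000045394, chromosome 17, 87635979 to 87651129, plus strand), had 0, 0, 1, 0, 3 and 1 counts in ligated animals at day 8 and 1, 0, 0, 0, 2 and 5 at day 15, and 0 in all 12 sham libraries. Over both days that was 13 counts against 0, at least 4.03-fold against a floor of 3 counts over the 12. Cldn7, a tight junction claudin of epithelia (ENSMUSG00000018569, chromosome 11, 69964779 to 69967885, plus strand), had 2 counts in ligated animal 3 of day 8 and 0, 1, 0, 0, 2 and 2 at day 15, and 0 in all sham libraries. Its 7 counts against 0 give at least 2.17-fold. With no filter, the edgeR adjusted p over both days averaged was 0.0120 for Epcam and 0.0806 for Cldn7. That fit gave smaller SEs than the main one (0.37 in place of 0.67 for Krt8) and called 1041 genes in place of 436. DESeq2 called only Krt8, Krt18 and Pigr of the 10 genes on that average. The Epcam value is therefore no call of the main fit. Epcam and Cldn7 were the 2 of the 10 genes that had 5 or more ligated counts and no sham count. Over the whole table, 892 of 14154 genes with at least 5 ligated counts (6.30%) had 0 in sham libraries, while 12 genes showed the reverse.

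Sox9, a transcription factor of duct and cartilage cells (ENSMUSG00000000567, chromosome 11, 112782224 to 112787760, plus strand), had 1, 0, 6, 3, 0 and 2 counts in ligated animals at day 8, against 0, 1, 2, 3, 0 and 3 in sham animals. At day 15 it had 4, 5, 0, 1, 3 and 3 after ligation and 7, 0, 0, 3, 2 and 0 after sham surgery. The ratios of normalised sums were 1.39 (0.539 to 3.74) and 1.03 (0.458 to 2.39), and the groups overlapped on both days.

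Spp1 encodes osteopontin, a secreted phosphoprotein of duct cells, macrophages and bone (ENSMUSG00000029304, chromosome 5, 104435118 to 104441050, plus strand). At day 8 it had 4, 4, 10, 7, 1 and 4 counts in ligated animals and 1, 1, 27, 11, 23 and 32 in sham animals. At day 15 it had 16, 8, 5, 8, 14 and 11 after ligation and 0, 5, 1, 5, 3 and 6 after sham surgery. Its log2 fold change was -1.27 at day 8 (SE 0.61, edgeR adjusted p = 0.340) and 1.27 at day 15 (SE 0.66, adjusted p = 0.312), and neither value was called. The difference between days was 2.53 (SE 0.90, adjusted p = 0.718). Sham animals 3, 5 and 6 of day 8 held the highest Spp1 levels of their group, at 71.3, 37.9 and 38.0 CPM. A list of 17 cartilage and bone genes was summed beside it. It ran from 21.4 to 113 CPM in ligated and from 48.4 to 158 CPM in sham animals at day 8, with 158, 107 and 117 CPM in sham animals 3, 5 and 6. At day 15 it ran from 42.1 to 96.4 CPM in ligated and from 23.7 to 108 CPM in sham animals. 2 of the 17 genes were tested, and they did not move together. Sox6, a transcription factor of cartilage and red cell precursors, had 82 counts in ligated and 41 in sham animals at day 8 and 84 in ligated and 28 in sham animals at day 15. Its log2 fold changes were 1.22 (SE 0.37, edgeR adjusted p = 0.0717) and 1.17 (SE 0.38, adjusted p = 0.0773), and the average over both days, 1.20 (SE 0.27, adjusted p = 0.00376), was called. Col2a1, the cartilage collagen, was lower after ligation at day 8 (5 against 103 counts; log2 fold change -3.96, SE 0.84, adjusted p = 0.00861). Within the shallower day 8 libraries alone this was -2.49 (adjusted p = 0.512) and within the deeper ones -4.93 (adjusted p = 0.0751). At day 15 Col2a1 was not called (8 against 23 counts, log2 fold change -1.85, edgeR adjusted p = 0.270), with a count in 2 of 6 ligated libraries. The part of cartilage or bone RNA in the Spp1 values was not tested.

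**Figure D4:**
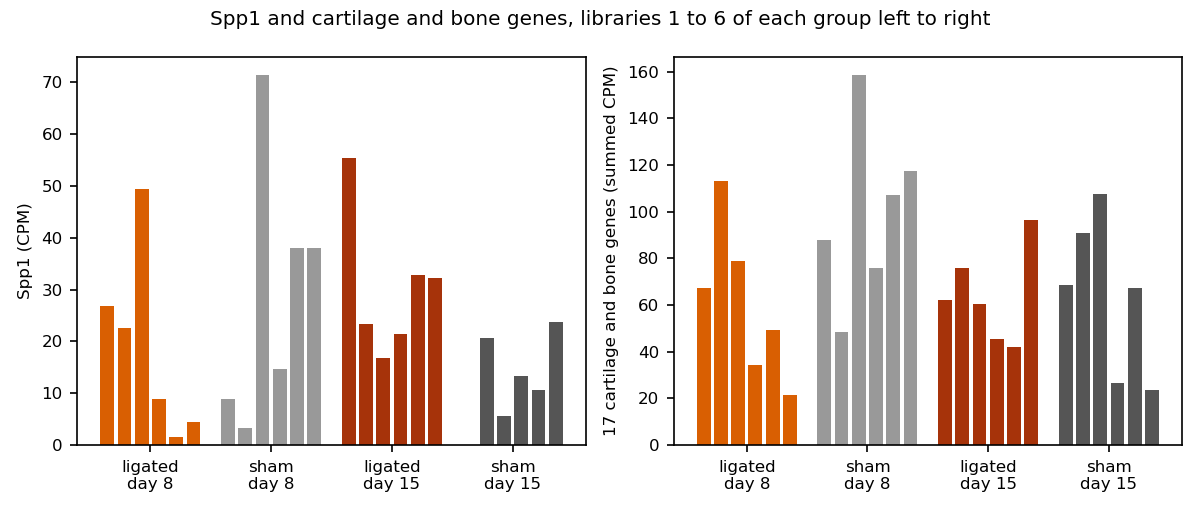
CPM of Spp1 and summed CPM of 17 cartilage and bone genes in each library (bars, animals 1 to 6 left to right within a group), with ligated left of sham animals for each day. In sham animals of day 8 Spp1 reaches 71.3 CPM and the list 158 CPM in animal 3.

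Other genes of simple epithelium and bile duct were followed as a list of 37, of which 36 were in the table and 7 were tested (Aqp1, Cd24a, Bicc1, Tjp1, Jup, Plec and Ppl). 0 of the 7 were called on either day by edgeR, with 1 at an unadjusted p under 0.05 at day 8 (Cd24a) and 1 at day 15. Their median log2 fold change was 0.105 at day 8 and -0.135 at day 15, near those of all genes. Cd24a, a surface glycoprotein of ducts and blood cells, was nearest to a call at day 8 (0.89, SE 0.29, adjusted p = 0.0928). Below the filter, Cdh1, the epithelial cadherin, had 47 counts in ligated against 2 in sham libraries, and Cldn3, a claudin, 26 against 1. Krt20, a keratin of gut and urothelium, had 18 against 0, Cftr, a chloride channel of ducts, 14 against 0, and Pkhd1, the cilium protein fibrocystin, 13 against 0. Of the 30 listed genes with at least 5 ligated counts, 6 had 0 in sham libraries, beside 6.30% over the whole table, and 0 listed genes showed the reverse. Sctr, the secretin receptor of bile ducts, had 0 counts in all 24 libraries. Krt80, a keratin found across many epithelia, was more evenly spread, with 79 counts in ligated and 46 in sham animals at day 8, and 44 and 17 at day 15. Among all 54 keratin genes in the table, 35 had a count, and Krt8 and Krt18 held 39.1% of keratin counts in ligated and 17% in sham animals at day 8, and 67.1% in ligated and 16.9% in sham animals at day 15.

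A list of 13 gut epithelial genes also had more counts after ligation, though no gene of that list was tested. Its summed level ran from 9 to 73.8 CPM in ligated and from 0 to 3.22 CPM in sham animals at day 8, and from 26.3 to 67.1 CPM in ligated and from 0 to 7.90 CPM in sham animals at day 15. Fabp2, the intestinal fatty acid binding protein, had 58 counts in ligated against 0 in sham libraries, and Reg3g, an antimicrobial lectin, 19 against 0. Over the whole table, 6.30% of genes with at least 5 ligated counts had 0 in sham libraries. Phgr1, Tff3 and Defa24 were at 0 in all groups. Epidermal markers stayed low, at most 29.6 CPM in ligated and 17.6 CPM in sham animals at day 8, and 52.0 CPM in ligated and 24.8 CPM in sham animals at day 15, with Krt1, Krt16 and Krtdap at 0 throughout and 0 of 16 genes tested. Gut tissue expresses Krt8, Krt18, Krt19, Epcam, Cldn7 and Pigr, and its part in these results was not tested.

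The remaining lists were read as markers of other cells. The list for immunoglobulin A and mucosal transport had 7 tested genes (Cd74, Xbp1, Tnfrsf1a, Irf1, Nfkb1, Rela and Traf6). Of these 0 were called on either day, and 1 was called lower on the average of both days. Jchain was below the filter, with 17 counts in ligated and 15 in sham libraries, and Igha was not in the table. The tested genes therefore do not speak to immunoglobulin A transport beside Pigr. The macrophage list had 3 tested genes, of which Ccr2, a chemokine receptor of monocytes, rose at day 8 (1.94, SE 0.40, edgeR adjusted p = 0.00757) and at day 15 (1.96, SE 0.44, adjusted p = 0.00686). Its day 8 value was 1.56 (adjusted p = 0.351) within the shallower and 2.05 (adjusted p = 0.0751) within the deeper libraries. Of 4 tested stellate cell and fibroblast genes, the collagens Col1a1 and Col1a2 fell at day 15, with log2 fold changes of -1.55 and -1.43. Red blood cell genes rose at day 8, 8 of 12, and 0 of 12 at day 15. Platelet genes gave 0 calls of 12 on either day. Of 7 tested keratin stress genes, Ubb, a ubiquitin gene, rose at day 8 (0.72, SE 0.16, adjusted p = 0.00959), though within the deeper libraries alone its adjusted p was 0.529. Of the 15 hepatocyte and bile duct transcription factors 4 were tested and 0 called on either day. On the average of both days 1 of the 4, Sox4, was called lower (-1.32, SE 0.36, edgeR adjusted p = 0.0177). It had 48 counts in ligated against 104 in sham libraries. Below the filter, Hnf4a had 138 counts in ligated against 3 in sham libraries and Foxa3 16 against 0. Tead1 had 63 against 68 and Hes1 38 against 41.

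The genes whose pattern was closest to Krt8, Krt18 and Pigr were found by the root mean square distance of centred log2 CPM over the 24 libraries, leaving out the 10 genes themselves. For Krt8 they were Ambp (0.605), Cfb (0.626), Gnmt (0.639), Plg (0.676) and Itih4 (0.691), where the median distance of all tested genes was 1.78. For Krt18 they were Apoc1 (0.759), Errfi1 (0.791), Cfb (0.846), Gstm3 (0.874) and Ambp (0.883), with a median of 1.73. For Pigr they were Fgb (0.534), Serpina3k (0.635), Apoa1 (0.651), Cyp3a11 (0.654) and Gc (0.674), with a median of 2.20. Krt18 ranked 2 for Krt8, and Krt8 ranked 1 for Krt18, at a distance of 0.626. Krt19 ranked 171 for Krt8, 161 for Krt18 and 233 for Pigr. Distances of low genes are pulled together by the shared prior count, and the libraries share groups and depths.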

How the data were processed

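Vesicle RNA of 24 animals was analysed from the deposited expected counts, which are all whole numbers; rounding them before testing changed none. STAR and RSEM are named without versions, per the submitters' processing notes, which also name hg38 although the identifiers are mouse genes, so the build was not established. Coordinates and exon lengths come from GENCODE M21 by identifier (21860 of 21960 found).

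Groups were taken from the sample titles. The genes and lists were chosen with earlier results of these data known. Counts were filtered with filterByExpr (minimum 10, total 15; 4112 genes kept), normalised by TMM and tested in edgeR 4.0.16 (quasi-likelihood, 1 mean per group, all 24 libraries), with Benjamini-Hochberg adjustment over all tested genes at 0.05. The SE of a fold change for 1 day, or between days, is the log2 value divided by the root of F; that of a difference between days is the root of the summed squares of the SEs for the days, and that of an average is 0.5 times as large. CPM divides counts by total times TMM factor; log2 CPM has a prior count of 2. Ratios of normalised sums carry exact conditional binomial intervals, shares exact Clopper-Pearson ones (95%), and floors are 3 counts over a group. Reads carry no molecular identifiers, so these cover counting error only, and p-values measure the spread between animals. DESeq2 1.42.0 was an alternative.

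Named genes were the 10 members, Alb, up to 3 called genes per list and day by smallest p, and the 5 nearest patterns; others are named by their counts and were chosen after those were seen. Same-numbered ligated and sham animals deviated together at day 8 (correlations 0.165 to 0.327, 6 of 6 over 0.1) and not at day 15 (-0.0315 to 0.115, 1 of 6). The numbers were therefore read as possible pairs at day 8, from the data alone. The main tests were unpaired, and a fit with the number as a block was run as an alternative. Depth at day 8 also followed the animal number in both groups, and its part in the correlations was not tested. No pair of libraries of a group came below 1.74 in chi-square per degree of freedom. Symbols were matched to RefSeq promoters for 8 of 10 genes.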

Additional observations from a re-analysis of the deposited data

Results flagged for a closer look

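Of 85 groups of 6 libraries checked for a library far from the others, 5 were picked out. Chance picks about 1 in 20 groups of continuous values, a rate that does not hold for 4 of these 5, where a single library held 1 or 2 counts and the others 0. Krt23 was at 1.49 CPM in ligated animal 5 of day 8 (1 count) and at 5.84 CPM in ligated animal 6 of day 15 (2 counts), with the others of each group at 0. Cldn7 was at 9.86 CPM in ligated animal 3 of day 8 (2 counts), with the others at 0. Pigr was at 7.10 CPM in sham animal 5 of day 15 (2 counts), with the other sham animals at 0. The summed hepatocyte list was at 7045 CPM in ligated animal 3 of day 8, with the other ligated animals between 478 and 1134 CPM.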

How the results depend on the processing

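Of the 10 genes, the number called at day 8 (2) was 4 with no filter, 0 with only the 2 groups compared (where none passed the filter), 1 within animals 1 to 3 and 1 within animals 4 to 6, and 1 to 2 leaving out a library. At day 15 (3) it was 1 with only the 2 groups (1 gene passed the filter). It was 5 (against 3) with no filter and 3 to 4 leaving out a library on the average of days, and 1 with no filter for the difference between days (Spp1, adjusted p = 0.0124). For ligated animals, day 15 against day 8, it was 0 with DESeq2 and 0 to 3 leaving out a library. All genes called at day 8 (129) numbered 298 with no filter, 84 with only the 2 groups, 202 with the replicate block, 46 within animals 1 to 3, 6 within animals 4 to 6, 232 with DESeq2 and 58 to 159 leaving out a library. At day 15 (187) they numbered 688 with no filter, 449 with DESeq2 and 117 to 260 leaving out a library; on the average (436), 1041, 775 and 349 to 553. For the difference between days (0) they numbered 51 with no filter, 1 with the block and 0 to 2; for ligated animals between days (179), 652 with no filter, 270 with DESeq2 and 36 to 359. The replicate block, the paired fit, changed no call of the 10 genes.

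Signs turned for values near 0: the averaged Spp1 effect (-0.0018) was 0.015 with the block, 0.21 with DESeq2 and -0.31 to 0.18 leaving out a library. The difference between days was -0.16 for Krt8 and 0.16 for Pigr with DESeq2, and -0.94 to 1.25 and -0.63 to 2.01 leaving out a library. Hbb-bs at day 15 ran from -0.20 to 0.21. Depth limits Krt7, Krt23, Epcam, Cldn7 and Sox9, at 49 counts or fewer each over 24 libraries. The causes were not tested.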
